A study of Caenorhabditis elegans with 2 samples.

Results

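The endoderm specification cascade of Caenorhabditis elegans was read here as 6 genes, med-1, med-2, end-1, end-3, elt-2 and elt-7, out of 19973 nuclear protein-coding genes. They were chosen by name, as the embryonic chain that runs from SKN-1 through GATA-type transcription factors to the intestine. Binding was measured by chromatin immunoprecipitation and sequencing (ChIP-seq) of SKN-1 fused to eGFP, from whole L3 larvae (the third larval stage) of both sexes. There was 1 group of 2 biological replicates, both from strain OP342, which carries unc-119(ed3) and the integrated transgene wgIs342. The labels do not say which promoter drives the fusion or how many copies the strain holds. A control library entered the authors' peak lists but was not analysed here, and there was no second condition or stage to compare. Whole animals were used, so the tissue in which a summit arose is not resolved.

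SKN-1 is the worm relative of the Nrf factors. In the early embryo, maternal SKN-1 switches on the near-identical genes med-1 and med-2 in the blastomere that gives rise to mesoderm and endoderm. The MED proteins then bind end-1 and end-3, whose products commit the E cell to endoderm, and the END proteins turn on elt-7 and elt-2. The first 4 genes are transient and are called early factors here, while ELT-2, and with it ELT-7, stays on in the intestine and is maintained there by autoregulation. Later in life SKN-1 is known mainly for stress and detoxification genes.

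The authors' peak lists give each peak a signal value, a score with no stated unit, and a summit, its highest position. The IDR-thresholded list (IDR is the irreproducible discovery rate, which keeps peaks whose ranks repeat between replicates) held 1778 peaks, the lowest with a signal value of 26.95. These were the 1778 strongest of the 30000 lines of the pooled list, made from both replicates. A place among them thus followed pooled signal value and does not by itself show that a single peak repeated in both replicates. The pooled list and the replicate lists (22350 lines for replicate 1, 30000 for replicate 2) hold peaks together with background, so a line in them is not a called site. Their signal values are set against others of the same list only. A summit counted for a gene when it fell in a window that began 2000 bp before one of its 5′ ends and stopped 200 bp after it.

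None of the 6 cascade genes had an IDR-thresholded summit in its window, where 10.1% of all protein-coding genes had one. With 6 genes a count of 0 lies near that background, so nothing particular to the cascade follows from it. In the pooled list 3 of 6 had a summit (med-1, elt-2 and elt-7), against 56.9% of all genes. In replicate 1 the count was 2 of 6 (elt-2 and elt-7) against 48.5%, and in replicate 2 it was 4 of 6 (med-1, end-3, elt-2 and elt-7) against 56.7%. med-2 and end-1 had no window summit in any of the 4 lists. The median of the highest pooled signal value over the 3 genes with a summit was 7.49, and over the 11359 genes of the genome with one it was 11.3.

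**Figure D1:**
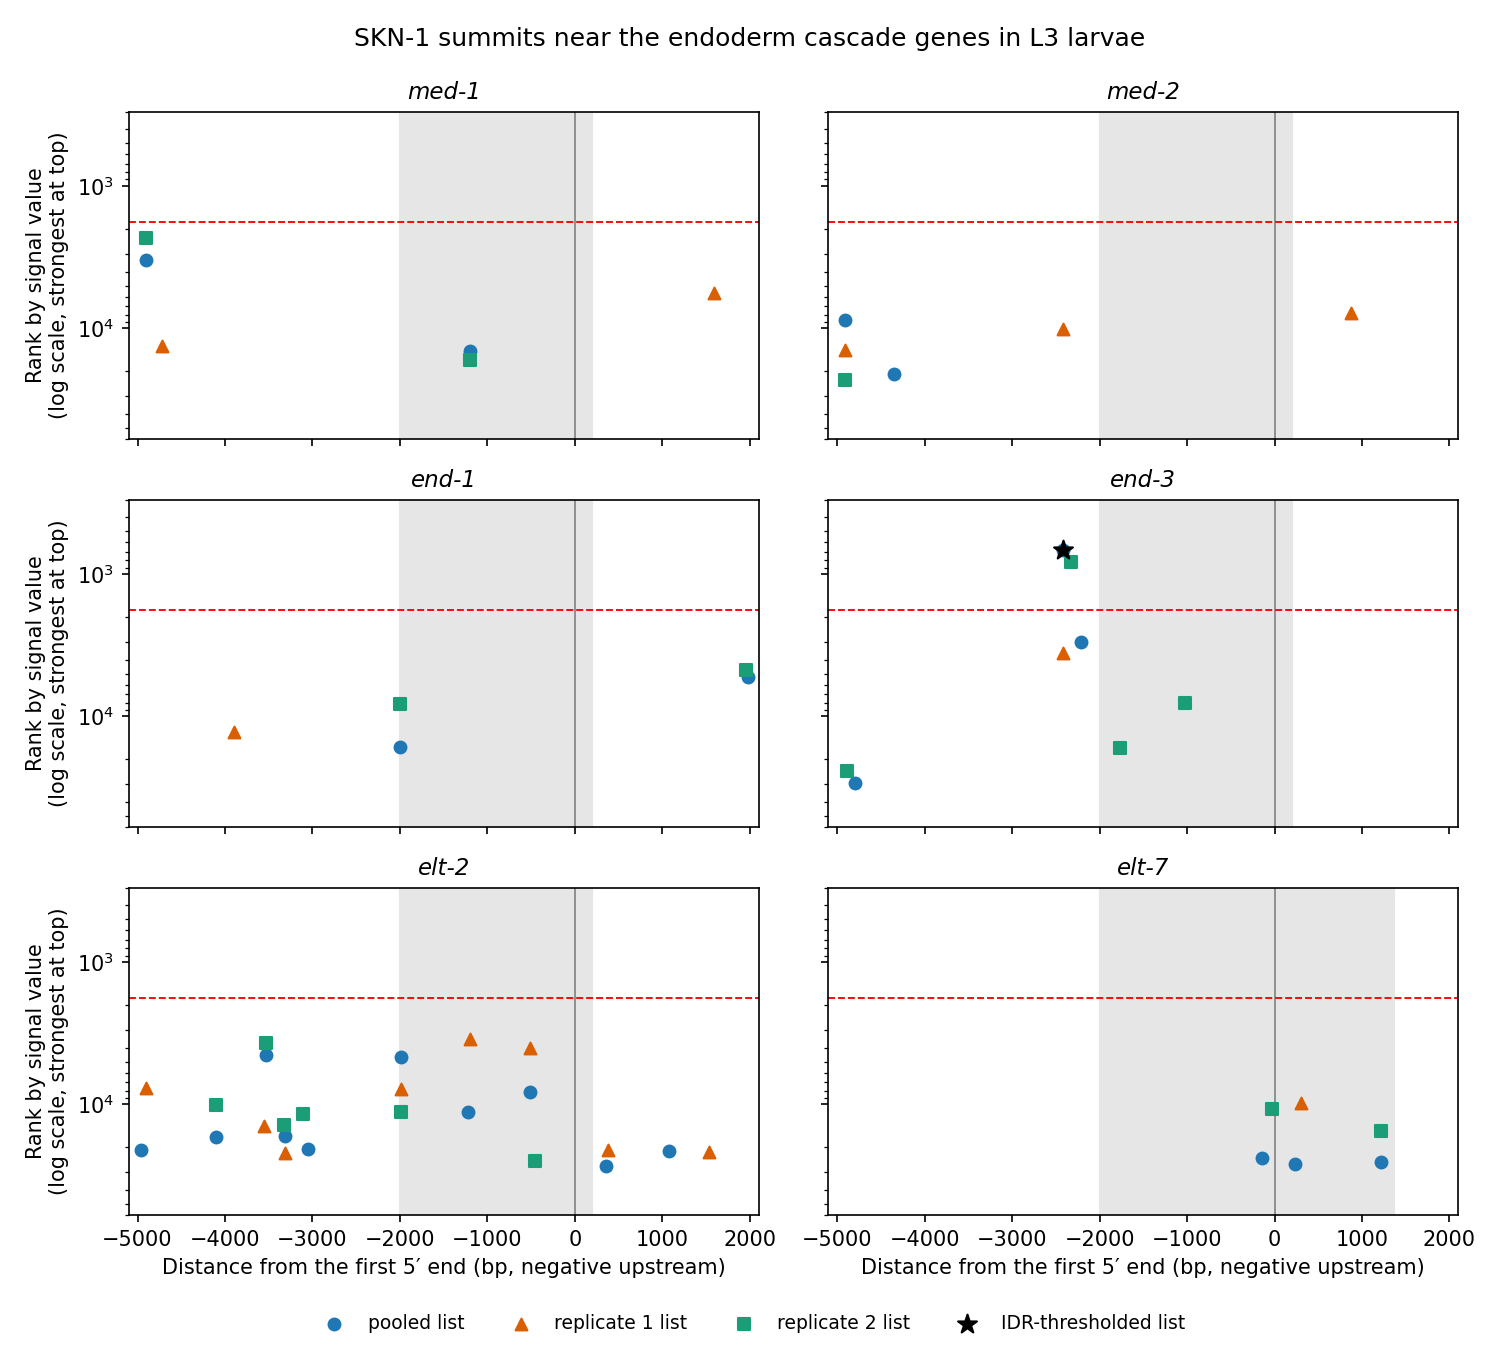
Each panel shows 1 gene, with the distance of every summit from its first 5′ end on the x axis (bp) and the rank of that summit by signal value within its own list on the y axis (log scale, strongest at the top). Symbols mark the 4 lists, the shaded band is the window (longer for elt-7, which has 2 annotated 5′ ends) and the dashed line is rank 1778. No symbol inside a shaded band lies above the dashed line, and the star upstream of end-3, which covers the pooled symbol at the same place, lies outside the band.

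The distance to the nearest thresholded summit varied widely among the 6 genes. It was 2422 bp for end-3, 14982 bp for med-2, 22940 bp for end-1, 36623 bp for med-1, 39051 bp for elt-7 and 51494 bp for elt-2. The median over all genes was 20660 bp. Thus end-3 and med-2 lay nearer to a thresholded summit than the median gene, and the other 4 lay farther. The 3 most distant were both maintained factors and the early factor med-1. Of all genes, 22.2% lay farther than elt-2, 30.5% farther than elt-7 and 32.4% farther than med-1. The shares were 46.9% for end-1, 59.1% for med-2 and 87.4% for end-3.

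The first step of the cascade is the activation of med-1 and med-2 by SKN-1. med-1 (WBGene00003180, chrX:12430609-12431133) and med-2 (WBGene00003181, chrIII:6884503-6885027) are single-exon genes of 525 bp on ce11, and both gene models begin at the start codon. The genes were 97.5% identical base by base, and the 200 bp in front of them differed at 9 positions (95.5% identical). In the next 100 bp upstream the identity was 74.0%, and in the 100 bp beyond those it was 27.0%. Bases were compared at equal distance upstream without gaps, so these values do not show where the likeness ends. Both copies are shown because the early embryonic SKN-1 sites lie in this stretch. Capitals mark the 5-base SKN-1 core (A or G, then TCAT) on either strand.
med-1, chrX:12430409-12430608, plus strand: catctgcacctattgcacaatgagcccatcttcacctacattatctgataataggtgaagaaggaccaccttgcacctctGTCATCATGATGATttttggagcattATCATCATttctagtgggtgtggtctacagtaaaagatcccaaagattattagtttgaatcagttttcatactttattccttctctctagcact
med-2, chrIII:6884303-6884502, plus strand: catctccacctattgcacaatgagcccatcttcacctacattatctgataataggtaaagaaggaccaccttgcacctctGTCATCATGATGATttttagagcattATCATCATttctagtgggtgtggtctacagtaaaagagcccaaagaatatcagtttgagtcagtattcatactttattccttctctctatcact

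Each stretch holds 6 matches of the core, at the same positions in both genes. They form separate groups of overlapping matches, from 120 to 107 and from 94 to 87 bp upstream of the start codon. Only 0.451% of the 19970 promoters that could be read had 6 or more matches in the 250 bp before the 5′ end, where the median gene had 1. This motif and stretch were chosen after the sequences had been seen. Over the whole window med-1 had 14 core matches and med-2 had 20, and 17.7% and 1.58% of all windows had as many. The 8-base consensus (A or T in its first and second base, then T, A or G, and TCAT) occurred 1 time in the med-1 window and 2 times in that of med-2. At least 1 such match lay in 69.5% of all windows.

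No list had a summit near this cluster of cores in either gene. In med-1 the pooled window summit (X, 12429405) lay 1204 bp upstream, in intergenic sequence, at rank 14372 with a signal value of 7.49, which is 27.8% of the lowest thresholded value. Of the genes with a pooled window summit, 69.7% had a higher one. Replicate 2 had a summit 2 bp from it, at rank 16667 of 30000, and replicate 1 had none within 100 bp. No core, consensus or GATA match was centred within 50 bp of it. For med-2 the nearest lines upstream were a replicate 1 summit at 2422 bp (rank 10165) and a pooled summit at 4351 bp (rank 20977). On the other side a replicate 1 summit lay 873 bp downstream of the 5′ end (rank 7807), in a coding exon of the neighbour brd-1.

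The shared sequence of the med genes was measured as runs of bases that occur elsewhere. In each window 142 of 2166 runs of 36 bases occurred elsewhere in the genome, all of them within 194 bp upstream or inside the gene. Those upstream covered the stretch from 194 to 58 bp before the start codon with gaps of a single base, which takes in each of the 6 cores. Of runs of 50 bases, 85 of 2152 were repeated, and only 1 of these was upstream. The text deposited with the samples names a track of unique reads, but it gives neither the read length nor how reads with several matches were treated for the peak lists. The part of repeated sequence in the missing summits was not tested. The med-1 summit at 1204 bp lay in sequence with no repeated 36-base run.

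The second step is the activation of end-1 and end-3 by the MED proteins. end-1 (WBGene00001310, chrV:13985128-13987074) and end-3 (WBGene00001311, chrV:14014695-14015980) have 4 exons each, and their 5′ ends lie 29567 bp apart. Their proximal promoters are shown because they hold the core of the MED binding site, AGTATAC, marked in capitals on either strand.
end-1, chrV:13984918-13985017, plus strand: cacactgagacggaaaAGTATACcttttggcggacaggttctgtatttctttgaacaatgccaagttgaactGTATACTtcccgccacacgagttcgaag
end-3, chrV:14014455-14014634, plus strand: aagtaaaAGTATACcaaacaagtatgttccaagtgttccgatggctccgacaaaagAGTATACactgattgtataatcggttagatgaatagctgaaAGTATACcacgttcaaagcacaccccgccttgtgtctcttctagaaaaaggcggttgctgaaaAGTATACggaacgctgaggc

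The end-3 window held 4 MED cores, between 233 and 74 bp upstream, and that of end-1 held 2, between 194 and 132 bp upstream. Among all windows, 0.180% had 4 or more, 3.43% had 2 or more and 12.5% had any. Both MED core counts describe the reference sequence and not binding, since SKN-1 and not MED was precipitated. The SKN-1 consensus occurred 2 times in each window, and 35.9% of all windows held as many or more. The core occurred 11 times at end-1 and 7 times at end-3 (median of all windows, 10).

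No pooled or replicate summit lay near the MED cores. The end-1 window was empty in all 4 lists, but only just: a pooled summit of rank 16433 (signal value 6.85) lay 2004 bp upstream, with a replicate 2 summit of rank 8157 (signal value 8.01) at the same base and none in replicate 1. On the far side of the gene a stronger pooled summit lay 1984 bp downstream of the 5′ end, at rank 5268 (signal value 14.3), just beyond the annotated 3′ end of end-1. Replicate 2 had it at rank 4746, while replicate 1 had no summit within 100 bp. For end-3, replicate 2 alone had window summits, at 1019 bp (rank 8024, signal value 8.10) and at 1766 bp upstream, in an intron of the neighbour aip-1 (rank 16700, signal value 4.79). Neither the pooled list nor replicate 1 had one there.

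A thresholded peak stood beyond the end-3 window and belonged by position to the neighbouring gene. It ranked 675 of 1778 with a signal value of 42.8 (chrV:14012108-14012437, summit 14012273). The summit lay 2422 bp upstream of end-3 but 60 bp upstream of aip-1, which lies between them and encodes an arsenite-inducible protein that associates with the proteasome. In replicate 1 the summit was at the same base (rank 3612, signal value 6.22). In replicate 2 the nearest was 93 bp away (rank 827, signal value 29.0). A second pooled summit, 145 bp inside aip-1, ranked 3010 with a signal value of 19.9 and had no partner within 100 bp in either replicate. The sequence reaching 50 bp to either side of the thresholded summit is printed with the SKN-1 consensus in capitals, since it is the thresholded summit closest to any of the 6 genes.
aip-1, chrV:14012223-14012323, plus strand: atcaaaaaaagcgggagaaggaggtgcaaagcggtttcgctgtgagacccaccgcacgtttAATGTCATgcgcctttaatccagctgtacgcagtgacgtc

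The consensus match lay inside the 50 bp on either side of the summit, as it did for 12.4% of the thresholded summits and 6.63% of the pooled ones.

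elt-2 (WBGene00001250, chrX:10481240-10483441, 9 exons) encodes the main GATA factor of the larval and adult intestine. It had more lines in its window than the early factors in every list except the thresholded one, where it had none, and replicate 2, where its 2 summits equalled those of end-3. The pooled summits lay 1993, 514 and 1225 bp upstream, all in intergenic sequence. Their pooled ranks were 4609, 8124 and 11275, and their signal values 15.4, 10.8 and 8.78. Having 3 or more pooled summits was found for 9.10% of genes. The highest of the 3 reached 57.3% of the lowest thresholded value, and 37.1% of genes with a pooled window summit had a higher one. The deposited −log10 of q was 3.49, 2.07 and 1.30 at the 3 sites, where the highest in the pooled list was 3.785.

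The replicates repeated these sites in part. The site 1993 bp upstream, which is only just inside the window, ranked 7790 in replicate 1 and 11342 in replicate 2. The site at 514 bp ranked 4017 in replicate 1 and 25038 in replicate 2, where the summit lay 57 bp away. The site at 1225 bp ranked 3492 in replicate 1, and replicate 2 lacked it. So 2 of 3 elt-2 sites had a summit within 100 bp in both replicates, and elt-2 was the only one of the 6 genes with such a site, against 21.3% of all genes. Within 50 bp only the site at 1993 bp was matched in both. Replicate 1 ranked the elt-2 window higher than replicate 2 did: 30.7% of genes with a summit were above it in replicate 1 (best signal value 6.32) and 61.4% in replicate 2 (best signal value 6.40).

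The elt-2 window was rich in GATA sequences (A or T, GATA, then A or G), which GATA factors bind. It held 16, against a median of 5, and 0.240% of windows had as many. Each of the 3 pooled summits had one centred within 50 bp, as did 24.3% of all pooled summits. That share is not taken over windows as rich in GATA sequences, so it does not tell whether the elt-2 summits lie closer to them than other bases of the window. The sequence reaching 50 bp to either side of each summit is shown, in order of signal value, with GATA sequences and the SKN-1 consensus in capitals.
elt-2, 1993 bp upstream, chrX:10479197-10479297, plus strand: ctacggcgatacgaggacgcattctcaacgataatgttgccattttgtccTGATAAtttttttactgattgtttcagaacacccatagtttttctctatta
elt-2, 514 bp upstream, chrX:10480676-10480776, plus strand: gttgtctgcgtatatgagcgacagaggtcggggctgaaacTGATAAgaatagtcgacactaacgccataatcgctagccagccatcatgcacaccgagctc
elt-2, 1225 bp upstream, chrX:10479965-10480065, plus strand: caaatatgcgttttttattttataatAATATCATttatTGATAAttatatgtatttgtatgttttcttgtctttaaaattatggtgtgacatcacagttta

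The SKN-1 consensus lay beside the weakest of the 3 summits only, and the core beside this one and that at 514 bp. In the whole window there were 3 consensus matches, and 14.8% of windows had as many. The motifs are not independent, because a SKN-1 core that starts with A and follows T and T, as in TTATCAT, reads TGATAA on the other strand. In the elt-2 window 2 of the 16 GATA sequences overlapped a SKN-1 core.

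elt-7 (WBGene00015981, chrV:4770670-4773086) encodes a second GATA factor of the intestine that acts beside ELT-2. It has 2 annotated 5′ ends, at 4770670 and 4771838, so its window was longer than the others. It held 3 pooled summits, as many as elt-2, but all were near the bottom of the list. They lay 142 bp upstream of the first 5′ end (rank 23593, signal value 5.23), 237 bp downstream of it in an intron (rank 26116, 4.81), and 54 bp downstream of the second in a coding exon (rank 25452, 4.92). The best of them reached 19.4% of the lowest thresholded value, and 89.6% of genes with a pooled window summit had a higher one.

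None of the elt-7 summits was matched in both replicates. Replicate 1 had 1 summit in the window (rank 9754, signal value 3.80), in the intron, 70 bp from the pooled one. Replicate 2 had 2, at 27 bp upstream (rank 10808, signal value 6.64) and in the coding exon (rank 15428, signal value 5.11). The pooled summit at 142 bp thus had no partner within 100 bp in either replicate. The pooled summits in the intron and the coding exon had no SKN-1 core or consensus centred within 50 bp. Each had a GATA sequence there, a trait of 24.3% of all pooled summits. A consensus match lay within 50 bp of 6.63% of all pooled summits. The summit at 142 bp is shown all the same because it lies on a SKN-1 consensus match, marked in capitals, at 149 to 142 bp upstream.
elt-7, 142 bp upstream, chrV:4770478-4770578, plus strand: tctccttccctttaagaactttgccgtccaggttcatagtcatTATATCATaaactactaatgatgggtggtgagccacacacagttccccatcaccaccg

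In the 250 bp before the first 5′ end elt-7 had 4 SKN-1 cores, more than end-1, end-3 (1 each) or elt-2 (0) and fewer than the med genes (6 each). This many were found at 4.06% of promoters. In the 2201 bp window of the first 5′ end its count of 5 was low, with 93.4% of windows holding as many.

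**Figure D2:**
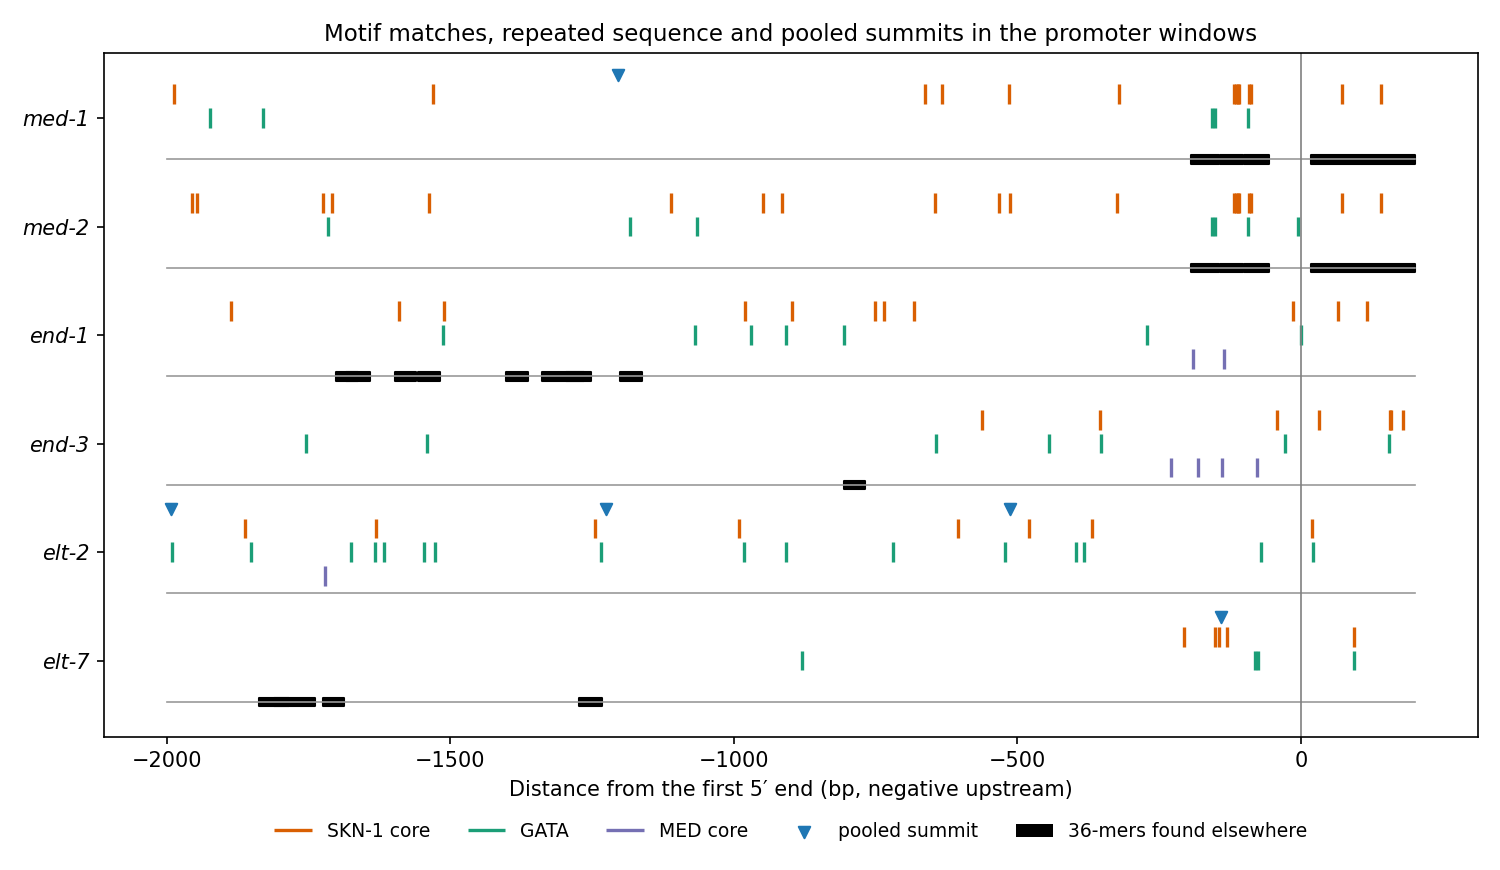
Motif matches on both strands (vertical ticks), stretches of 36-base runs found elsewhere in the genome (black bars) and pooled summits (triangles) are drawn by distance from the first 5′ end (bp) for the 6 genes. Pooled summits more than 200 bp downstream of the first 5′ end are not drawn. Of the 3 in the longer elt-7 window, only that 142 bp upstream is therefore shown. The 6 clustered SKN-1 cores of each med gene lie above a black bar, the 4 MED cores of end-3 lie within 233 bp of its 5′ end, and elt-2 carries 3 triangles and 16 GATA ticks.

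Set side by side, the maintained factors carried window lines more often than the early ones, at low rank. In the pooled list the counts were 2 of 2 maintained factors and 1 of 4 early ones, against 56.9% of all genes. In replicate 1 they were 2 of 2 and 0 of 4, against 48.5% of all genes. In replicate 2 they were 2 of 2 and 2 of 4, against 56.7%. The thresholded list had 0 in both classes, where 10.1% of all genes had a summit. The number of pooled summits was 6 at the maintained factors and 1 at the early ones. These are counts over 6 genes of unequal window length, with no second condition, and the difference was not tested. At elt-7 the summits in the intron and the coding exon, among them its only replicate 1 summit, counted through its second 5′ end alone. Nothing particular to either class is therefore read from these counts. By the highest pooled signal value the order was elt-2, med-1 and elt-7, so a single maintained factor stood above med-1 and the other below it. In replicate 2 the order differed. There the early factor end-3 was highest (8.10), above elt-7 (6.64), elt-2 (6.40) and med-1 (4.80). In replicate 1 only elt-2 (6.32) and elt-7 (3.80) had a value.

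**Figure D3:**
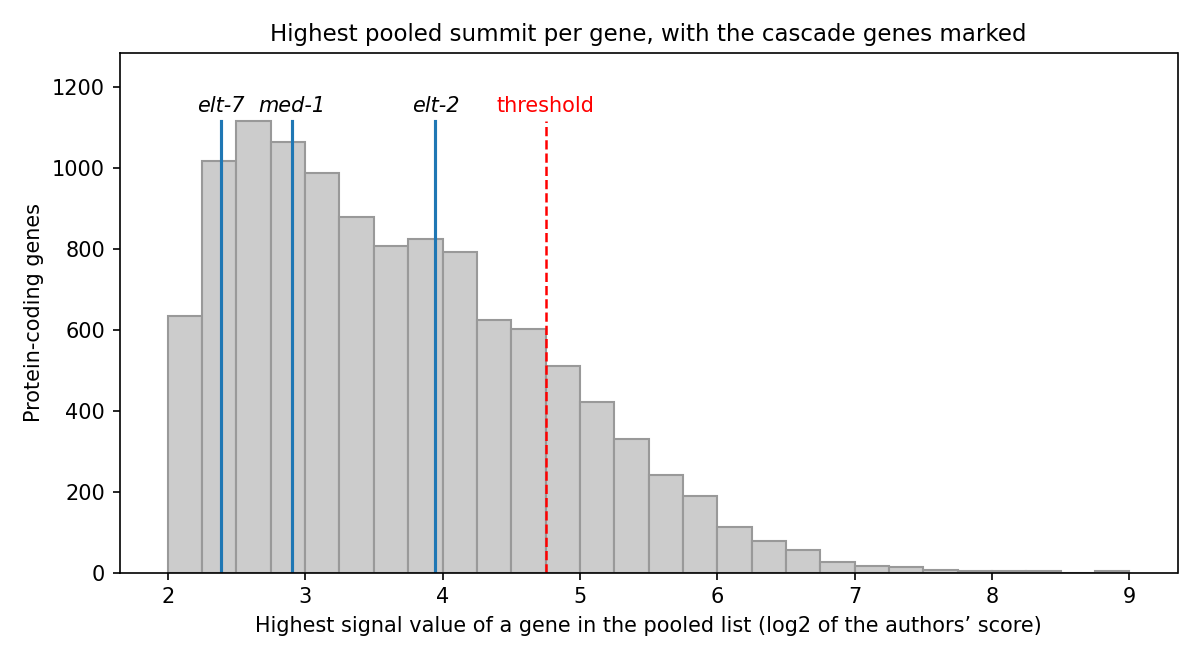
The bars count the protein-coding genes by the log2 of their highest pooled signal value within the window (only genes with a pooled summit are included). Vertical lines mark elt-7 (5.23), med-1 (7.49) and elt-2 (15.4) and, dashed, the lowest thresholded peak (26.95), all before the log2; the 3 genes lie left of the dashed line.

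Other genes of the same pathways were taken from lists made with earlier results of these data known. Over all genes, 10.1% had a thresholded summit in the window, 56.9% had a pooled one, and the median of the highest pooled values was 11.3. Among 13 genes listed as endoderm and mesoderm inputs in the early embryo, skn-1 included, 2 had a thresholded summit, which is near that background. Of the 13, 10 had a pooled one, and the median was 12.9. lit-1, a Nemo-like kinase of the Wnt and MAPK branch, had its summit 1464 bp upstream (III, 13716501), at rank 484 in the thresholded list with a signal value of 48.9. The highest summit in the lit-1 window ranked 1135 in replicate 1 and 550 in replicate 2. mex-1, whose RNA-binding product limits SKN-1 to the right blastomeres, had one 921 bp upstream (II, 11967716), at rank 655 with a signal value of 43.6. That summit lay closer to the 5′ end of W03C9.5, at 172 bp. The highest summits in the mex-1 window ranked 277 in replicate 1 and 1044 in replicate 2. For both genes the replicate summits were not matched by position to the thresholded one. wrm-1, a beta-catenin that acts with LIT-1, was named after its value was seen: at pooled rank 1796 (signal value 26.8) it fell just below the threshold.

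The 5 GATA factor genes outside the cascade (elt-1, elt-3, elt-4, elt-6 and egl-18) had no thresholded summit either. Of these, 4 had a pooled summit, with a median highest value of 7.72, beside 7.49 for the cascade genes and 11.3 for all genes. On the mesodermal side, which the MED proteins also start, 0 of 6 genes had a thresholded summit and 3 of 6 a pooled one (median 7.35). The shares over all genes were 10.1% and 56.9%, and the lists hold 5 and 6 genes, so nothing particular to them is read from these counts. pha-4, the FoxA factor of the pharynx, chosen after its value was seen, came closest, at pooled rank 2023 with a signal value of 25.1. The gene skn-1 itself had no line in any of the 4 lists within the window of its 4 annotated 5′ ends.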

How the data were processed

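Peak lists of 2 biological replicates of 1 group (eGFP-SKN-1, L3 larvae) were analysed. According to the README text of the samples, the authors made a replicate list from each replicate's alignment and a control alignment, a pooled list from both, and an IDR-thresholded list from these, in narrowPeak format on ce11. No source used here names the aligner, the peak caller or the IDR threshold. The deposited signal value is a score on the authors' scale, and q-values were deposited on the −log10 scale. Read depth is unknown from these lists. The ce10 lists and signal tracks were not used here.

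Ranks were taken within each list by signal value. Genes and 5′ ends came from Ensembl release 115 and sequence from RefSeq, both on WBcel235, which is ce11. Summits within 100 bp were matched between lists. Motifs were searched on both strands in the 2201 bp window of each gene's most upstream 5′ end. A summit held a motif when a match was centred within 50 bp. Runs of 36 and 50 bases were searched in the 6 nuclear chromosomes. No test was run: there is 1 group, and genes are not replicates. The window assignment, ranks and searches were checked on simulated data with known answers, in Python 3.11.15.

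The members, lists and rules were chosen with earlier results of these data known. The naming rule takes the 6 genes, the genes of 3 pathway lists with a thresholded summit, skn-1, and the nearest gene where a member's summit lay closer to another. The part of the rule that names genes of like signal gave none, since it needs a thresholded summit. Alternatives were other windows, thresholds, matching distances, gene assignment and each replicate alone.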

Additional observations from a re-analysis of the deposited data

How the results depend on the processing

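The count of cascade genes with a thresholded summit was 0 among 2 times as many pooled lines (17.5% of all genes) and when any base of the peak counted. Among the 1778 strongest lines of replicate 2 alone it was 0, against 9.87% of all genes, and of replicate 1 alone 0, against 9.03%. The window of 1000 bp upstream (7.76% of all genes), the 1000 strongest thresholded peaks and the nearest gene only are narrower settings. They could give only 0 and are no check of the count. No share of all genes was counted for any base of the peak, the 1000 strongest peaks or the nearest gene. From 5000 bp upstream to 500 bp downstream the count was 1, end-3, through the peak beside aip-1, where 15.2% of all genes had one. The count with a pooled summit was 6 in that window (75.2% of all genes) and 2 in the window of 1000 bp (45.9%), in which med-1 was lost. With the list of replicate 1 alone it was 2 (48.5% of all genes) and with that of replicate 2 alone 4 (56.7%). With the nearest gene only it was 3, a setting for which no share of all genes was counted. The highest pooled value of med-1 was 18.7 in the longest window, through a summit 4899 bp upstream that lay 20 bp from the 5′ end of T24D3.2. That of elt-2 was 10.8 in the shortest window and 15.7 in the longest, and that of elt-7 was 5.23 in each. Pooled summits matched in both replicates were 1 within 50 bp and 2 within 100 and 200 bp. Within 100 bp 21.3% of all genes had such a summit, and no share was counted at 50 or 200 bp. The 6 windows held 11 SKN-1 consensus matches (8 in the shorter window) and 65 of the 5-base core, an alternative chosen after seeing the data. In the main and the shortest window, med-2, end-1 and end-3 had no highest pooled value, since no pooled summit fell there, and med-1 had none in the shortest. No paired analysis was possible because there is 1 group. Read depth is unknown, so a missing summit is one not detected in these lists.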

Other observations

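The gene that encodes the precipitated factor lay in an unusually empty stretch. No summit of the pooled or replicate lists used here fell between IV, 5631929 and 5685727, a stretch of 53.8 kb around skn-1 (IV, 5651039 to 5660384). It was the third longest of 77301 gaps between neighbouring summits, whose median was 519 bp. It held the 5′ ends of 13 protein-coding genes. The stretch was noticed after the lists had been seen, and its cause was not tested.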
